A study of Homo sapiens with 9 samples.

Results

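The EPO receptor gene EPOR, the tyrosine kinase gene JAK2, the transcription factor genes STAT5A, STAT5B and STAT3, the inhibitor genes CISH, SOCS1, SOCS2 and SOCS3 and the target gene PIM1 were taken by name from the pathway that carries the erythropoietin signal, and make up 10 of the 20163 protein-coding genes annotated on hg19. The measurement was of H3K4me3, a histone mark of active promoters, by CUT&RUN, an assay in which a nuclease tethered to an antibody cuts out the marked chromatin for sequencing. All libraries came from HEL cells, an established human erythroleukemia line, grown in RPMI medium with serum, and they differed in the CRISPR guide carried: a non-targeting control (NTC, 3 libraries) or a guide against METTL3, METTL14 or WTAP (METTL3-KO, METTL14-KO or WTAP-KO, with 2 libraries for each knockout). The 3 targeted genes encode subunits of the methyltransferase that places m6A on RNA, and the comparison asks whether H3K4me3 at genes of the erythroid program differs when this enzyme is lost. The labels name 1 cell line, do not say whether a knockout was a clone or a pool of cells, and do not say whether the libraries of a group came from separate cultures, so that each p-value measures only the spread between these libraries, which may be technical. The edits themselves cannot be read from a list of H3K4me3 peaks, and the knockout labels were therefore not checked.

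Erythropoietin binds EPOR on the surface of erythroid progenitors, and the receptor, which has no kinase activity of its own, activates the JAK2 bound to its tail. JAK2 phosphorylates the receptor and STAT5A and STAT5B, which enter the nucleus and turn on survival and proliferation genes such as PIM1 together with CISH and the SOCS genes, whose products bind the receptor or the kinase and shut the signal off. HEL cells carry an activated mutant JAK2 in extra copies, so that the pathway is on without the hormone.

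For each gene and library the largest calibrated signal of a listed peak within 1 kb of any annotated start was taken, with 5 kb beside it, and a gene without a listed peak was given 0. A listed peak had passed a height threshold, so that a value of 0 does not show that the mark was absent. The smallest listed signal was similar in all libraries, from 30.1 to 32.0. Low values within a library were whole multiples of a step. The smallest listed signal was 24 to 28 steps in the NTC libraries and 30 to 94 in the KO libraries. The threshold, and how many fragments a step stands for, are not stated in the sources used here. The 9 lists held 99358 peaks, 21724 to 21941 in an NTC library, 9205 and 9369 in METTL3-KO, 3169 and 5286 for METTL14-KO, and 3160 and 3673 for WTAP-KO. The share of protein-coding genes with a peak was 46.8% to 47.9% in the NTC libraries, 33.5% and 34.6% in METTL3-KO, 13.2% and 21.1% in METTL14-KO and 11.4% and 12.9% in WTAP-KO. The widest listed peaks measured 2000 bp, so that a stretch without a listed peak cannot be read as unmarked. Of 10 erythroid and megakaryocytic markers all 10 had a peak in at least 1 NTC library, and 7 in at least 1 KO library. Of 11 markers of other cell types 9 had no peak in any library.

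Across the 10 genes, 6 to 8 had a peak in an NTC library, 4 and 6 in METTL3-KO, 2 in both METTL14-KO libraries, and 1 and 2 in WTAP-KO. EPOR, SOCS1 and SOCS3 had a peak in each of the 3 NTC libraries and in 0 of the 6 KO libraries, and STAT5A had 1 weak peak in 1 KO library. CISH was the reverse, with a peak at its start in METTL3-KO and in no NTC library. STAT5B and PIM1 kept a peak in 5 and 6 KO libraries, at a place inside the gene where no NTC library had a listed peak. None of the 9 libraries had a JAK2 peak within that distance. In these bulk libraries, fewer cells carrying a mark and less mark per cell cannot be told apart.

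**Figure D1:**
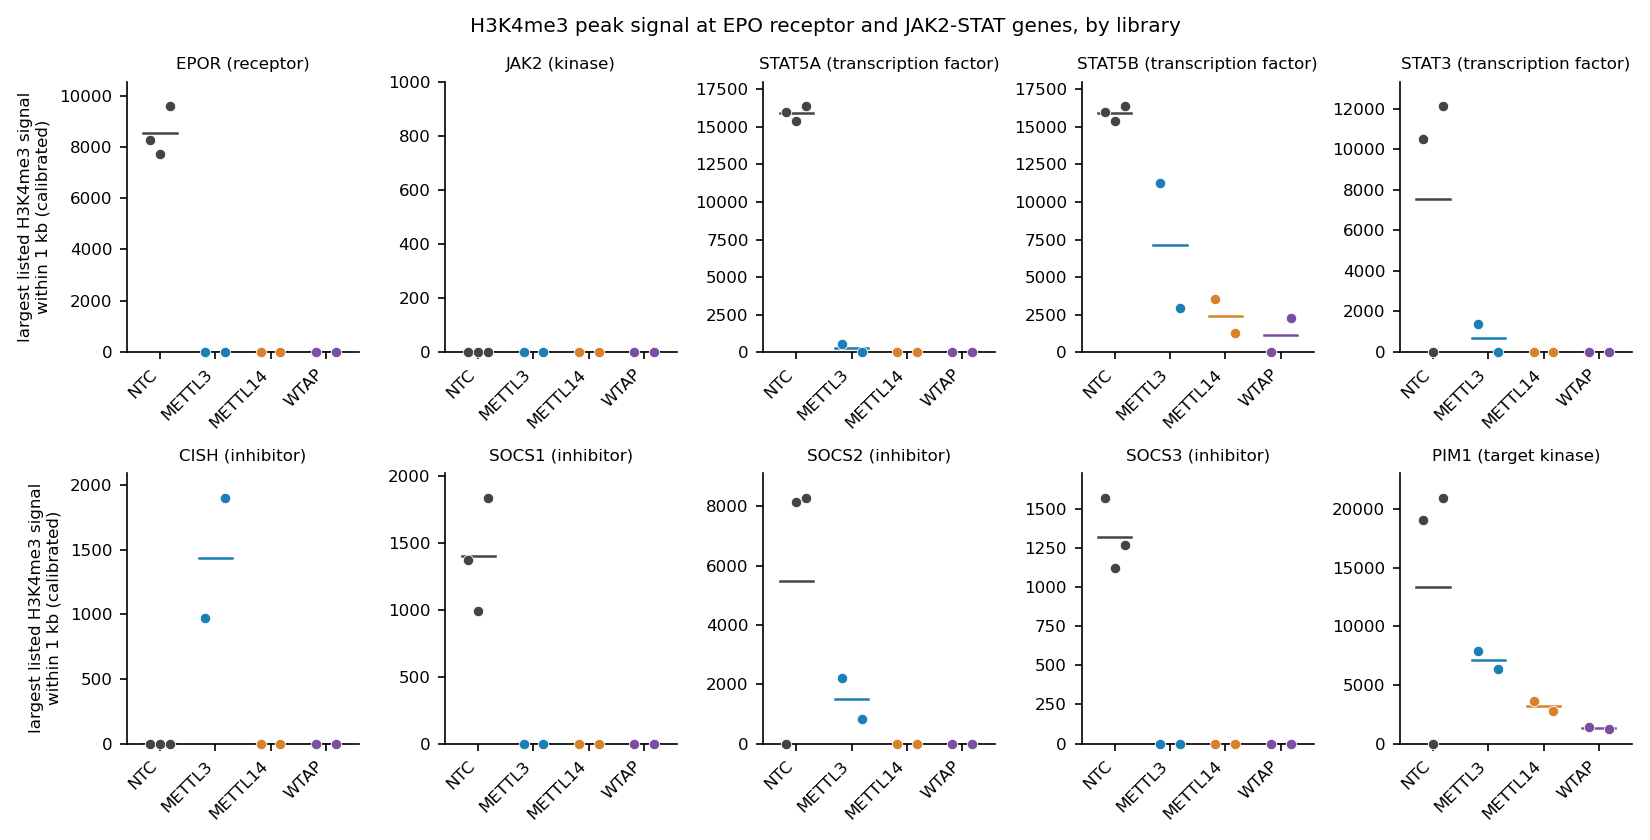
Largest H3K4me3 peak signal within 1 kb of a start (y axis, calibrated signal, scale set for each gene) in each library (points) by group, with group means as lines. EPOR, STAT5A, SOCS1 and SOCS3 sit high in the 3 NTC libraries and at or near 0 in the 6 KO libraries, CISH is above 0 in METTL3-KO alone, and JAK2 is at 0 throughout.

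EPOR, the receptor, lies on the minus strand at chr19:11487883-11495018 with its canonical start at 11494990. A peak covered that start in every NTC library, and ran from 120 bp upstream to 1363 bp inside the gene in the widest. Its signal was 8281.1, 7712.7 and 9593.5 in the NTC libraries, or 8529 ± 964.6 (SD, n = 3), and 0 in all 6 KO libraries. The groups did not overlap. No KO library had a listed peak within 5 kb either. EPOR is one of the genes the study's text gives as an example, so its direction is not independent evidence.

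A stretch of 300 bases of the first intron, within the 1414 bases that the 3 NTC peaks share, is shown because it is what the KO lists lack at the receptor. It lies at chr19:11494469-11494768 (GRCh37, the assembly that hg19 names; minus strand), and capitals mark the GC box letters GGGCGG, searched on both strands and held by 32.5% of the 300-base windows centred on NTC peaks.
EPOR first intron: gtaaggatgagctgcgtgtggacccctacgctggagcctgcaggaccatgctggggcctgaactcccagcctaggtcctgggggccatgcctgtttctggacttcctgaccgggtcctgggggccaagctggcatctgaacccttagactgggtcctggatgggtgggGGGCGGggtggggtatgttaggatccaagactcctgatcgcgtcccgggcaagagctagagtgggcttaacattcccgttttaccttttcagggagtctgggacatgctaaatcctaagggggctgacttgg
The window had 60.0% G and C, against a median of 54.3% in those NTC windows. The STAT motif TTCNNNGAA, the GATA letters AGATAA (or with T as the first or G as the last letter) and the CACCC letters CCACACCC were not found in it.

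In the limma fit over 12037 protein-coding genes with a peak in at least 2 libraries, EPOR fell by 8.15 in all KO against NTC on the log2(signal + 30.1) scale (SE 0.115, adjusted p = 1.26e-08, limma with Benjamini-Hochberg adjustment). The same fit called 73.0% of the genes lower and 14.3% higher, with a median change of -5.30, so that a lower signal at EPOR was the common outcome. EPOR fell by 2.84 more than the median gene, and by 2.81 more after centring on the genes marked in all 9 libraries. Because its 6 KO values are all 0, the size of the change depends on the pseudocount and is no bound, and the SE covers only the spread of the NTC libraries. EPOR entered the fit through NTC peaks alone, so the filter fixed its direction and the fit adds no support. The exact permutation test of 6 against 3 libraries gave a two-sided p = 0.0238, the smallest that this design allows. Among the other tested genes, those with the most similar values over the 9 libraries were PSMD7 (8233.7, 7547.0 and 9703.1 in NTC; root mean square difference 0.0121 on the log2 scale), AGAP2 (0.0172) and LNPEP (0.0206), each without a KO peak.

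JAK2, the kinase bound to the receptor, lies on the plus strand at chr9:4984390-5129948 with its canonical start at 4985272. Its signal was 0 in all 9 libraries, and it was not tested. Within 5 kb the one listed peak was in METTL3-KO 2, 2706 bp from the nearest start and inside an intron, with a signal of 504.1. The NTC peaks nearest to JAK2 lay 18366 to 18552 bp from a start, at chr9:4964800-4966024 in NTC 1, with signals of 11027.9, 8581.7 and 12474.3. In the 5 other KO libraries the nearest peak lay 81687 to 81892 bp away. In every library the stretch around the JAK2 start without a listed peak was thus wide, from 85294 to 471063 bp. Because the lists hold no peak wider than 2000 bp, the JAK2 start cannot be read as unmarked. All 10 genes had at least 1 GC box within 250 bases upstream of the canonical start, JAK2 included, as had 59.1% of all promoters.

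Around JAK2, 19 other protein-coding genes have a start within 1 Mb. Of these, 3 (RLN2, PLPP6 and SPATA6L) carried a peak in every KO library and none in NTC, which is 15.8%, against 588 of all 20163 genes, or 2.92%. A further 3 genes, ERMP1, RANBP6 and MLANA, were marked in all 3 NTC libraries, the first 2 of them also in all 6 KO libraries. CD274, which encodes the checkpoint ligand PD-L1, had no listed NTC peak and had one in 5 KO libraries. The neighbours without a listed NTC peak cannot be read as unmarked in NTC either. Neighbouring genes share peaks and, in HEL cells, extra copies of this stretch of chromosome 9, so that these genes are not independent and no test was made. Copy number was not measured, and its part in these signals was not tested.

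STAT5A and STAT5B, the transcription factors that carry the signal to the nucleus, lie head to head on chromosome 17, STAT5A on the plus strand at chr17:40439565-40463961 and STAT5B on the minus strand at chr17:40351194-40440651. Some annotated STAT5B starts lie beside the STAT5A starts, so that both genes took the same NTC peaks, with signals of 16031.8, 15421.4 and 16393.0 and a mean of 15949 ± 491.1 (SD, n = 3). At STAT5A the KO values were 524.6 and 0 in METTL3-KO and 0 in both METTL14-KO and both WTAP-KO libraries. All KO libraries lay below all NTC libraries, and the KO mean was 0.548% of the NTC mean. The change was -8.35 on the log2 scale (SE 0.859, limma adjusted p = 1.07e-04), and the exact permutation test gave p = 0.0238. Its single KO peak would not have passed the filter, so STAT5A entered the fit through its NTC peaks and the fit adds no support. Over all genes tested 73.0% were called lower. The fall passed the limma test in METTL3-KO (-6.95, adjusted p = 0.00129), METTL14-KO (-9.05, adjusted p = 3.02e-04) and WTAP-KO (-9.05, adjusted p = 2.89e-04). The METTL14-KO and WTAP-KO sizes depend on the pseudocount because those values are all 0. The single KO peak, chr17:40441096-40441635 in METTL3-KO 1, lay inside the wider NTC peak of the first exon and intron.

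At STAT5B the values within 1 kb of any start were 11283.7 and 2963.5 in METTL3-KO, 3562.1 and 1252.8 in METTL14-KO, and 0 and 2246.4 in WTAP-KO, or 22.3% of the NTC mean. Every KO library lay below every NTC library (exact permutation p = 0.0238), but the limma change of -3.43 (SE 1.36) had a limma adjusted p of 0.0501 and missed the threshold. It passed when WTAP-KO 1 (-2.39, adjusted p = 0.0107) or WTAP-KO 2 (-4.47, adjusted p = 8.74e-04) was left out. It also passed within 5 kb (adjusted p = 0.0491), with summed peaks (-4.33, adjusted p = 0.0231) and with the pseudocount times 10 (-2.78, adjusted p = 0.0118). With peaks covering the start it was -8.14 (adjusted p = 7.75e-07), but no KO peak covered a STAT5B start, so the filter fixed that direction. It missed the threshold after centring (-0.92) and after division by the step (-2.31). Taken singly against NTC, WTAP-KO passed (-5.93, SE 1.75, adjusted p = 0.0188; -3.27 and 0.196 after centring), and METTL3-KO (-1.46, adjusted p = 0.472) and METTL14-KO (-2.90, adjusted p = 0.169) did not. These numbers set the STAT5A-side peak of NTC against another peak in the KO libraries. With the canonical start at 40428409 as the one start, a choice made after seeing the data, the NTC values were 5897.6, 5108.3 and 6677.3 (5894 ± 784.5, SD, n = 3), the KO mean was 60.3% of it, and the groups overlapped (exact permutation p = 0.405).

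The listed peaks at STAT5B's own promoter lay on opposite sides of the start. In the NTC libraries they lay upstream, at chr17:40428534-40429496, chr17:40428534-40429344 and chr17:40428574-40429497. In 5 of 6 KO libraries the largest peak lay in the first intron, with its centre 796 to 1204 bp inside the gene, over a stretch where the NTC libraries had no listed peak for 5389, 81893 and 81923 bp. WTAP-KO 1 had no peak at STAT5B. Because the lists hold no wider peaks than 2000 bp, a stretch without a listed peak cannot be read as unmarked.

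**Figure D2:**
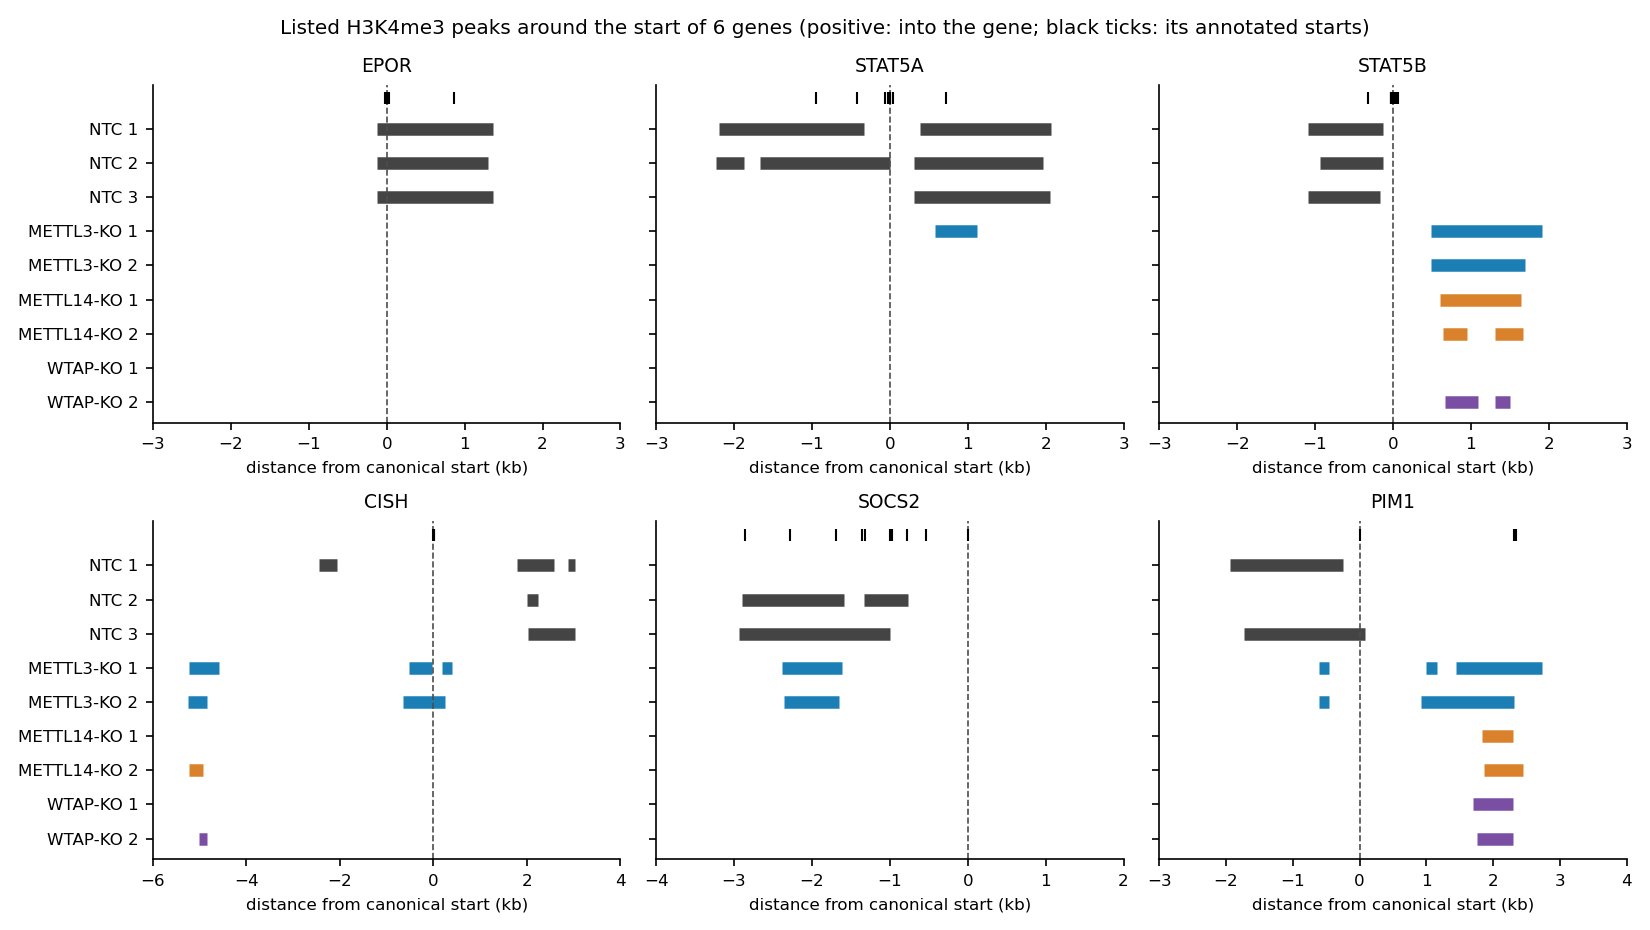
Listed H3K4me3 peaks (bars) in each library (rows) by distance from the canonical start of 6 genes (x axis, kb, positive into the gene; black ticks are annotated starts). The EPOR bars are in the 3 NTC libraries only, and at STAT5B and PIM1 the largest KO peaks lie inside the gene where no NTC bar is drawn.

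A stretch of 300 of the 771 bases that the 3 NTC peaks share and the 287 bases that the largest peaks of 5 KO libraries share are shown together because the listed peaks of the groups lay in different places. They lie at chr17:40428726-40429025 and chr17:40427455-40427741 (GRCh37, minus strand), with GC box letters in capitals.
STAT5B NTC, upstream: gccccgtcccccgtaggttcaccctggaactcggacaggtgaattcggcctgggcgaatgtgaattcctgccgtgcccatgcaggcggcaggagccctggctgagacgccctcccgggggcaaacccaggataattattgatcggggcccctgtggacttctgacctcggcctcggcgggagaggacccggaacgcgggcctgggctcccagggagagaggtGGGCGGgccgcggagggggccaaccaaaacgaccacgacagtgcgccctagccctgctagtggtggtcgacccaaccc
STAT5B KO, first intron: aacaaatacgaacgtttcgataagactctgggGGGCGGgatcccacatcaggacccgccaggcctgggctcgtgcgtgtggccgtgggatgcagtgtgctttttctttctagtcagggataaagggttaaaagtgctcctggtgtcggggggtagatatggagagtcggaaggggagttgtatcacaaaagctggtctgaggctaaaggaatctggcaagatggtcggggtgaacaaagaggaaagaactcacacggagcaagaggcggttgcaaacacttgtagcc
The upstream window held 67.7% G and C and 23 CpG sites, and the intronic one 53.3% and 13. Each held 1 GC box, as did 36.9% of KO windows of 287 bases, and neither held the STAT motif. The intronic window overlaps an exon of the long non-coding RNA gene ENSG00000278829 on the same strand.

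STAT3, a factor that other cytokine receptors use and that JAK2 can also activate, lies on the minus strand at chr17:40465342-40540558. Its signal was 10508.0, 0 and 12139.8 in NTC, 1396.6 and 0 in METTL3-KO, and 0 in the other 4 KO libraries. NTC 2 had no listed peak for 92986 bp around the start, while NTC 1 and NTC 3 each had a peak over it and a larger one inside the gene, so the groups overlapped at 0. The change was -4.78 (SE 2.28, limma adjusted p = 0.0896; exact permutation p = 0.167) and missed the threshold, and without NTC 2 it was -7.63 (adjusted p = 0.00461). A peak was also missing from 1 NTC library at many other genes: this held for 26.3% of genes whose largest NTC peak averaged under 500 bp, 4.60% at 500 to 1000 bp, 7.33% at 1000 to 1500 bp, 12.8% at 1500 to 1800 bp and 36.6% at 1800 to 2000 bp. The largest STAT3 peaks were 1239 bp wide in NTC 1 and 1014 bp in NTC 3, and why NTC 2 has no listed peak was not tested.

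CISH encodes an inhibitor that competes with STAT5 for docking sites on the receptor, and it is a classic STAT5 target. It lies on the minus strand at chr3:50643920-50649205. Its signal was 0 in all 3 NTC libraries, 972.4 and 1903.0 in METTL3-KO, and 0 in METTL14-KO and WTAP-KO. Both METTL3-KO libraries lay above all others. CISH entered the fit through its METTL3-KO peaks alone, so that a higher METTL3-KO was fixed by the filter on low values and the fit adds no support to these values. The fitted difference was 5.53 on the log2 scale both against NTC (SE 0.291, limma adjusted p = 3.93e-06) and against METTL14-KO and WTAP-KO (SE 0.276, adjusted p = 3.29e-05), sizes that depend on the pseudocount because the other 7 libraries are at 0. Over all genes tested, METTL3-KO was called higher than NTC at 14.0% and lower at 60.9%, and higher than the other knockouts at 29.5%. Every METTL3-KO library was above every NTC library at 14.6% of the genes tested. The contrast of all KO with NTC (1.84, SE 0.225, adjusted p = 2.62e-04) averages METTL3-KO with groups that have no peak, and the exact permutation test over 6 against 3 libraries gave p = 0.833.

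Within 5 kb the picture at CISH was different. The NTC values were then 418.5, 409.7 and 1532.3, the METTL3-KO values 1589.6 and 1903.0, the METTL14-KO values 0 and 191.0, and the WTAP-KO values 0 and 351.0. METTL3-KO still lay highest, but NTC 3 came close to it, and the METTL3-KO change was 1.39 (adjusted p = 0.37). The NTC peaks lay inside the gene or upstream, and both METTL3-KO libraries had peaks that covered or flanked the start, at chr3:50648967-50649856 in METTL3-KO 2. The METTL3-KO 1 value of 1589.6 was that of another peak, farther upstream at chr3:50653791-50654425, where METTL3-KO 2, METTL14-KO 2 and WTAP-KO 2 also had one. CISH shares this window with a start of MAPKAPK3 on the opposite strand, so the mark cannot be given to one of them.

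The bases just upstream of CISH are shown because the METTL3-KO peaks overlap them and they hold STAT motifs, for which this promoter is known. They lie at chr3:50649206-50649338 (GRCh37, minus strand), with TTCNNNGAA and the GC box letters in capitals.
CISH upstream: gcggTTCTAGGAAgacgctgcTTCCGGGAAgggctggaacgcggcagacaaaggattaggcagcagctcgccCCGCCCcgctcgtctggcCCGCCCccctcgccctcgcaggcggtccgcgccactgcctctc
There were 2 STAT motifs, while 2.67% of promoter windows of this length held at least 1. Over 250 bases upstream of the canonical start, 5.67% of 19881 promoters held a STAT motif. Among the 10 genes CISH and SOCS3 held one, and SOCS3 had no listed peak in any KO library. EPOR and SOCS2 held GATA letters there, against 16.6% of promoters, and none of the 10 held the CACCC letters, against 2.88%.

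SOCS1 encodes an inhibitor that binds and blocks JAK kinases. It lies on the minus strand at chr16:11348274-11350061. Its signal was 1372.7, 994.3 and 1841.7 in NTC, or 1403 ± 424.5 (SD, n = 3), and 0 in all 6 KO libraries, so the groups did not overlap. The largest NTC peaks shared the start 11350174, 113 bp upstream of the gene. SOCS1 fell by 5.53 (SE 0.195, limma adjusted p = 3.81e-07; exact permutation p = 0.0238), which was 0.23 below the median gene in all KO and 2.05 below it in METTL3-KO. SOCS1 entered the fit through NTC peaks alone, so the filter fixed its direction and the fit adds no support. The size of the change, and so its distance from the median gene, depends on the pseudocount.

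Of the 487 bases that these peaks share, the 300 nearest to the gene are shown as promoter sequence listed in NTC alone. It lies at chr16:11350174-11350473 (GRCh37, minus strand), with the CACCC letters, read here as GGGTGTGG on the printed strand, and a GC box in capitals.
SOCS1 upstream: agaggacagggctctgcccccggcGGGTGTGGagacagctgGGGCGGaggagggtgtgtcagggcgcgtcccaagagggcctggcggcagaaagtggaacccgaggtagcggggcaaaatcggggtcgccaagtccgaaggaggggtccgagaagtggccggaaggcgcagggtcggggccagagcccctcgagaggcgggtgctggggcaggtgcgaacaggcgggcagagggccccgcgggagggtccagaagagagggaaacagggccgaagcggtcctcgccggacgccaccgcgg
It held 71.7% G and C and 28 CpG sites, against medians of 54.3% and 10 in the 300-base windows centred on NTC peaks. It held no STAT motif, against 8.96% of NTC windows, and 1 CACCC match, against 3.08%.

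SOCS2 encodes an inhibitor best known for damping growth hormone and prolactin signalling, and it is also a STAT5 target. It lies on the plus strand at chr12:93963590-93977263. Its signal was 0, 8135.4 and 8296.4 in NTC, 2203.6 and 814.8 in METTL3-KO, and 0 in METTL14-KO and WTAP-KO. NTC 1 had no listed peak for 122083 bp here and lay with the METTL14-KO and WTAP-KO libraries, so the groups overlapped. The change in all KO was -3.56 (SE 1.91, limma adjusted p = 0.121; exact permutation p = 0.167). METTL3-KO was 5.51 above METTL14-KO and WTAP-KO (SE 2.33, adjusted p = 0.142), which missed the threshold. Without NTC 1 the change in all KO was -6.26 (adjusted p = 5.50e-05). The largest peak was 1941 bp wide in NTC 3 and 1319 bp in NTC 2, and why NTC 1 has no listed peak was not tested.

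The METTL3-KO peaks, chr12:93964070-93964842 and chr12:93964089-93964802, lay inside the NTC peaks. Of the 714 bases that they share with the largest NTC 2 and NTC 3 peaks, a stretch of 300 is shown because it holds 3 STAT motifs and was listed in METTL3-KO too. It lies at chr12:93964442-93964741 (GRCh37, plus strand), upstream of the canonical start, and overlaps an exon of the antisense gene SOCS2-AS1. Capitals mark the STAT motif, GC boxes (GGGCGG or CCGCCC) and the CACCC letters. Of the 300-base windows centred on NTC peaks, 8.96% held a STAT motif, 32.5% a GC box and 3.08% the CACCC letters. The stretch had 71% G and C, against a median of 54.3% in those NTC windows.
SOCS2 shared peak: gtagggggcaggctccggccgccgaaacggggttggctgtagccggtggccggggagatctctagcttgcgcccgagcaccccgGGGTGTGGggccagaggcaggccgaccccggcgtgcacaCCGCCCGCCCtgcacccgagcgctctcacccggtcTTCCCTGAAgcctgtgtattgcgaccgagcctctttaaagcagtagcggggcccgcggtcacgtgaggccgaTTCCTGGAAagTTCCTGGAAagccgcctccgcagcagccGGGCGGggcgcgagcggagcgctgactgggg

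SOCS3 encodes an inhibitor that binds JAK2 and the receptor together, and it is a target of STAT3 as well as of STAT5. It lies on the minus strand at chr17:76352859-76356158. Its signal was 1570.2, 1122.1 and 1269.7 in NTC, or 1321 ± 228.3 (SD, n = 3), and 0 in all 6 KO libraries. The groups did not overlap. SOCS3 fell by 5.47 (SE 0.13, limma adjusted p = 5.93e-08; exact permutation p = 0.0238), 0.17 below the median gene. Like SOCS1, it entered the fit through NTC peaks alone, so the filter fixed its direction and the fit adds no support. The size of the change depends on the pseudocount. Within 5 kb NTC 1 had a larger peak of 7313.8 over the end of the gene.

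NTC 2 and NTC 3 had a peak over the SOCS3 start and all 3 NTC libraries had one farther upstream (chr17:76356506-76357102 in NTC 1), in the window of the divergent transcript SOCS3-DT.

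PIM1 encodes a serine and threonine kinase that promotes survival and is turned on by STAT5 and STAT3. It lies on the plus strand at chr6:37137928-37143204. Its signal was 19065.5, 0 and 20963.7 in NTC, 7904.7 and 6346.6 in METTL3-KO, 3590.3 and 2768.2 in METTL14-KO, and 1392.5 and 1266.0 in WTAP-KO. All 6 KO libraries had a peak, and they lay between NTC 2 and the other 2 NTC libraries. The change of 0.45 (SE 2.19, limma adjusted p = 0.855; exact permutation p = 0.167) gave no call. Its direction rests on NTC 2, and without that library the change was -2.68 (adjusted p = 4.36e-05).

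The NTC peaks at PIM1 lay upstream of or over the canonical start, at chr6:37135996-37137678 in NTC 1 and chr6:37136193-37138010 in NTC 3. The largest KO peaks lay inside the gene, with centres 1618 to 2158 bp from the canonical start, close to a pair of alternative starts 2316 and 2342 bp inside it. No NTC library had a listed peak there, for 6708, 73110 and 12838 bp. PIM1 and STAT5B were thus both of the 2 members with a peak in at least 5 KO libraries, and at both the largest KO peaks overlapped no NTC peak, as at 51.5% of the 2241 genes of that kind.

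All 6 KO libraries shared 433 bases here, and 300 of them are shown because this was the one place within 1 kb of a start of the 10 genes that every KO library marked. It lies at chr6:37139924-37140223 (GRCh37, plus strand), and none of the 4 motifs matched, so it has no capitals.
PIM1 KO peak: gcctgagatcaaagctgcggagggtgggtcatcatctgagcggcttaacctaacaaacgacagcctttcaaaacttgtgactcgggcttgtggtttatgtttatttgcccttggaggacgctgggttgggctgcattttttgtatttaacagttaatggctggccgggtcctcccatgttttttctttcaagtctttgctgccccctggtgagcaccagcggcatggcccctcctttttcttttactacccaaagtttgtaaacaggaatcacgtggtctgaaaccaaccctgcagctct
It had 49.3% G and C and 8 CpG sites, against medians of 55.0% and 14 in KO windows. The STAT motif was held by 10.2% of the KO windows of this length, and a GC box by 37.7%.

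Of the 9 tested members, 5 were called in all KO against NTC: EPOR, STAT5A, SOCS1 and SOCS3 lower, against 73.0% of all genes tested, and CISH higher, against 14.3%. METTL3-KO gave the same 4 lower, against 60.9%, and CISH higher, against 14.0%. METTL14-KO called 4 lower, against 68.8% of all genes tested, and WTAP-KO 5 lower, STAT5B being the fifth, against 69.7%. The median change of the 9 members was -4.78 in all KO (range -8.35 to 1.84), -2.92 in METTL3-KO, -5.47 in METTL14-KO and -5.53 in WTAP-KO. Over all genes tested the medians were -5.30, -3.48, -5.57 and -5.97. All 4 comparisons share the NTC libraries. EPOR, SOCS1 and SOCS3 entered the fit through NTC peaks alone and CISH through METTL3-KO peaks alone. STAT5A passed the filter only because of its NTC peaks. These counts and medians thus describe the members and support nothing further.

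**Figure D3:**
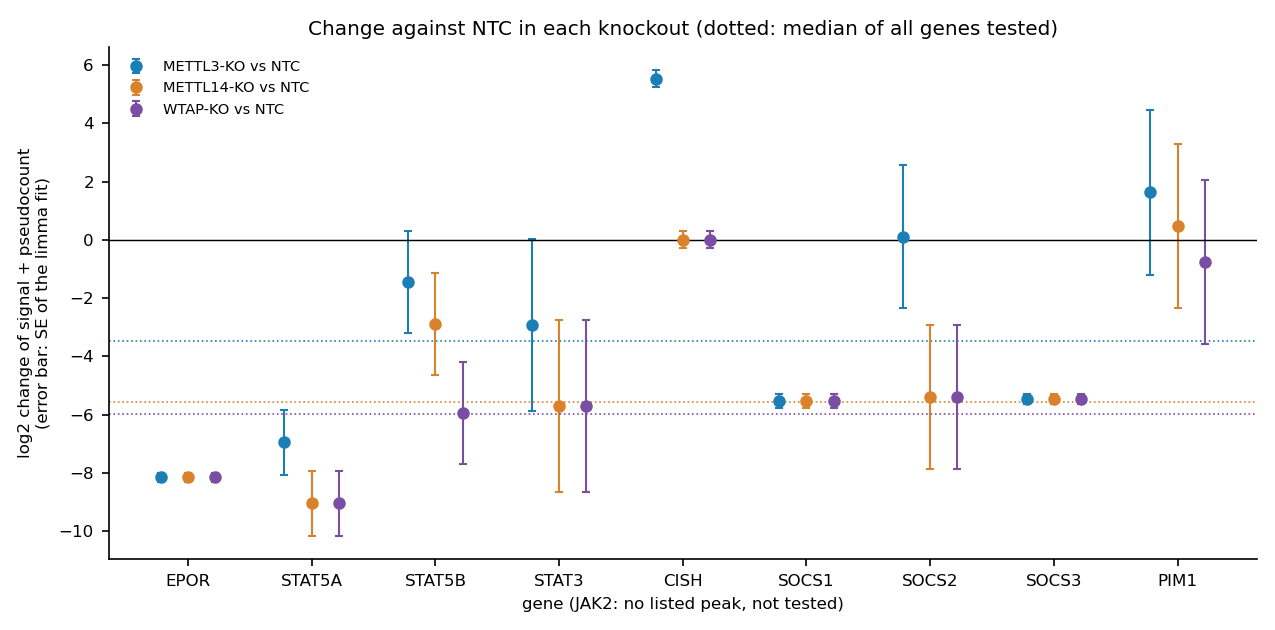
Change of the 9 tested members against NTC (y axis, log2 of signal plus pseudocount; points with SE bars from limma) for each knockout, with dotted lines at the median of all genes tested in each. EPOR and STAT5A lie below all 3 medians, SOCS1 and SOCS3 near -5.5, and CISH at 5.53 in METTL3-KO.

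Set against the rest of the genome, the loss at EPOR, SOCS1 and SOCS3 was common. Among 8495 genes with a peak in each NTC library, 45.8% lacked one in every KO library, and among the members this held for 3 of 5. All KO libraries lay below all NTC libraries at 68.3% of the genes tested, and at 5 of the 9 members. Among these, STAT5A and STAT5B took the same NTC peaks, and at the canonical start of STAT5B the groups overlapped. Of the genes with a KO peak, 39.9% had it in METTL3-KO alone, and among the 6 such members this was so for STAT5A, STAT3, CISH and SOCS2.

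Of 48 other genes of the JAK-STAT pathway, 30 had a peak in each NTC library. Of these 10 lacked any KO peak and 11 had KO peaks in METTL3-KO alone. A peak was listed in all 6 KO libraries for 5 of the 48. In the limma fit 42 could be tested, and 28 fell and 6 rose in all KO, with a median change of -4.79. The 6 that rose had no NTC peak, and the 10 without a KO peak were among the 28 that fell. The filter fixed the direction of these genes. Over all genes tested 73.0% fell and 14.3% rose, with a median of -5.30, and 45.8% of the genes marked in each NTC library had no KO peak. METTL3-KO called 24 lower and 6 higher, METTL14-KO 28 and 3, and WTAP-KO 28 and 2. METTL3-KO was higher than METTL14-KO and WTAP-KO at 16 and lower at 0 of the 42, while 29.5% of all genes tested were called higher. The count of 16 was 9 without METTL3-KO 1.

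Among the 8 other receptors 2 fell and 1 rose, and 4 could not be tested. KIT, the stem cell factor receptor, had 10712.0, 0 and 6863.4 in NTC and 921.7 in METTL3-KO 1 alone, without a call (-4.61, limma adjusted p = 0.0835; without NTC 2 -7.33 and 0.0036). IL6ST, the shared subunit of the interleukin 6 receptor family, had no NTC peak and values of 196.7 and 459.2 in METTL3-KO alone, through which it entered the fit.

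Of the 4 other kinases 3 fell, and all 4 were marked in all NTC libraries. JAK1, which serves interferon and interleukin 6 receptors, was the one not called lower within 1 kb of any start. Its signal was 3963 ± 680.2 in NTC (SD, n = 3), 12449.6 and 11232.4 in METTL3-KO, 2267.7 and 5172.7 in METTL14-KO and 2581.0 and 3524.5 in WTAP-KO. JAK1 rose in METTL3-KO (1.58, limma adjusted p = 0.0092), and its change in all KO was 0.34 (adjusted p = 0.322), against 3.17 (adjusted p = 6.40e-04) after centring and 1.72 (adjusted p = 0.0129) after division by the step. In all KO it fell where a peak had to cover the start (-6.25, limma adjusted p = 0.00113) and at the canonical start (-4.60, limma adjusted p = 3.09e-04). The rise in METTL3-KO missed the threshold without METTL3-KO 1 (1.51, adjusted p = 0.0529), and where a peak had to cover the start the direction turned (-4.67, adjusted p = 0.0154). TYK2, another Janus kinase, fell from 19496 ± 113.4 (SD, n = 3) to 2122 ± 2181 (SD, n = 6), a change of -4.46 (adjusted p = 0.0281) that missed the threshold when any NTC library was left out (adjusted p = 0.0747 to 0.076) and was -1.89 (adjusted p = 0.317) after centring. LYN, a Src family kinase that associates with EPOR, fell by 5.50 (adjusted p = 0.00286; -2.93 and 0.0684 after centring).

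All 4 other STAT genes fell. STAT2, which acts in type I interferon signalling, fell by 5.87 (limma adjusted p = 2.60e-04) and kept a peak in 3 KO libraries. STAT4 fell by 6.62 (adjusted p = 1.35e-07) and kept a weak peak in both METTL3-KO libraries, 279.6 and 317.2. STAT6, the interleukin 4 factor, had no KO peak.

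Of 8 adaptors and effectors 5 fell and 1 rose. CBL, the ubiquitin ligase that turns over activated receptors, had no listed NTC peak and 6862.7, 2519.2, 3175.8, 1234.9, 1046.9 and 2746.3 in the KO libraries. It rose by 6.34 (limma adjusted p = 3.25e-05), a size that depends on the pseudocount. The lists hold no peak wider than 2000 bp, so CBL cannot be read as unmarked in NTC. SOS1, the exchange factor that activates RAS, was marked in all 9 libraries and fell by 3.35 (adjusted p = 1.56e-04; -0.50 and 0.13 after centring). GRB2, the adaptor that brings SOS1 to the receptor, was marked in all 9 libraries with no call (-1.35, adjusted p = 0.208), NTC 1 standing at 1766.3 against 23474.7 and 23798.8 in the other 2. Without NTC 1 it was -2.59 (adjusted p = 0.00177). At the canonical start, a choice made after seeing the data, GRB2 was called higher (7.03, adjusted p = 2.55e-06).

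Of 13 inhibitors 8 fell and 3 rose. The 3 that rose had no NTC peak and entered the fit through KO peaks alone, and 4 of those that fell had no KO peak. The filter fixed the direction of these genes. SOCS5 was marked in all 9 libraries and fell by 3.91 (limma adjusted p = 2.86e-04). SOCS7 had a peak in 2 NTC and 3 KO libraries with no call (-2.58, adjusted p = 0.238), and without NTC 3 it was -5.03 (adjusted p = 0.00739). Of 11 targets 6 fell and 1 rose, and none was marked in all 6 KO libraries. BCL2L1, which encodes the survival protein BCL-XL, had no NTC peak and 10087.6 in METTL3-KO 2, 11276.0 and 8584.1 in METTL14-KO and 1523.1 and 3914.0 in WTAP-KO, and it rose by 6.30 (adjusted p = 0.0128), against 1.81 (adjusted p = 0.486) within 5 kb. CBL and BCL2L1 entered the fit through KO peaks alone, so the filter fixed their direction. BCL2L1, like CBL, cannot be read as unmarked in NTC. MYC (0.21, adjusted p = 0.926) and the transferrin receptor gene TFRC (1.69, adjusted p = 0.463) gave no call, and each lacked a peak in at least 1 NTC library. At the canonical start, a choice made after seeing the data, MYC was called higher (4.67, adjusted p = 1.89e-06). Without NTC 2, TFRC was at 4.38 (adjusted p = 0.0117).

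**Figure D4:**
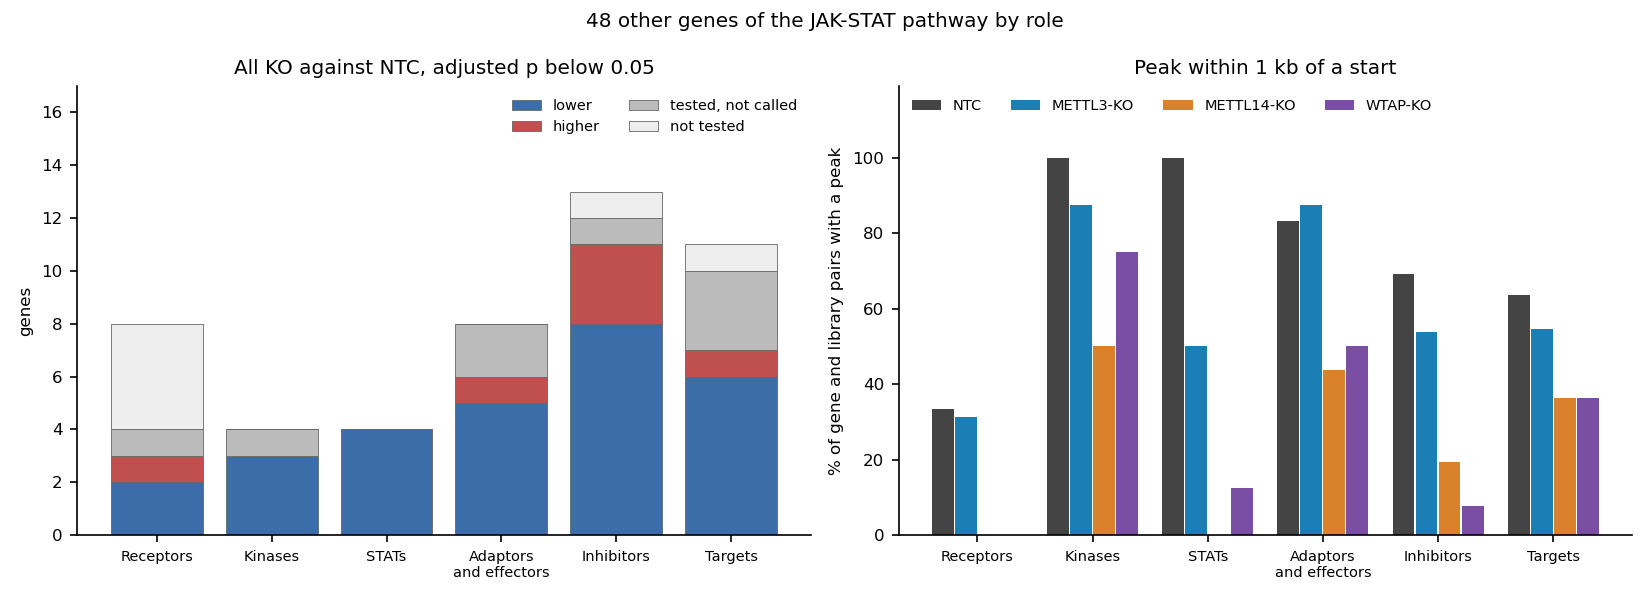
Left, numbers of the 48 other JAK-STAT genes by role (y axis, genes) called lower or higher in all KO against NTC, tested without a call, or not tested. Right, the share of gene and library pairs with a peak within 1 kb (y axis, %) in each role and group, where STAT genes go from 100% in NTC to 50% in METTL3-KO, 0% in METTL14-KO and 12.5% in WTAP-KO.

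Over all 48 genes a peak was listed for 69.4% of gene and library pairs in NTC, 58.3% in METTL3-KO, 25.0% in METTL14-KO and 26.0% in WTAP-KO. For the kinases these shares were 100%, 87.5%, 50% and 75.0%, and for the receptors 33.3%, 31.2%, 0% and 0%. Fewer peaks were listed genome-wide in the KO libraries, and their smallest listed signal was a larger number of steps. The part of these library properties in the lower counts was not tested.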

How the data were processed

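H3K4me3 CUT&RUN peak lists of 9 HEL libraries were used, grouped by the sample labels. The authors aligned paired reads with Bowtie to hg19 and to the yeast spike-in genome sacCer3, calibrated coverage by the spike-in, removed duplicates with Picard and called peaks in each library separately. The tool versions are not given in the sources used here. The deposited values are a calibrated signal per peak, not counts, and sequencing depth is unknown. Peak starts are given from 1, on the assumption that the lists count from 0.

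Genes were annotated with GENCODE 44 lifted to GRCh37. The largest signal within 1 kb of any start was analysed as log2(signal + 30.1), the pseudocount being the smallest deposited signal, with limma 3.58.1 (R 4.3.3; lmFit, eBayes with trend, all 9 libraries and 4 groups). The fit included genes with a peak in at least 2 libraries, with Benjamini-Hochberg adjustment over all of them at 0.05. A fold on this scale understates changes of weak genes. Exact permutation tests used SciPy 1.17.1. Simulated data were used to test the limma script. Python 3.11.15 was used with pysam 0.24.0, pandas 2.3.3, matplotlib 3.10.9 and numpy 2.4.6, and sequences are GRCh37.

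The members and lists were chosen with earlier results of these data known. All 10 members are named, as are up to 3 other genes a role with peaks in the most KO libraries (ties by NTC mean; inhibitors tied at 0 were not named). Alternatives were the window, start set, pseudocount, filter, threshold, scaling, groups, replicate block and leaving out each library. The labels name no batch. A few items are not reported here.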

Additional observations from a re-analysis of the deposited data

Results flagged for a closer look

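CISH differed between the knockout groups in the fit: its log2 signal was 5.53 higher in METTL3-KO than in METTL14-KO and WTAP-KO (SE 0.276, limma adjusted p = 3.29e-05), with a peak in 2 of 2 METTL3-KO libraries and in 0 of the other 4. Since CISH entered the fit through those 2 peaks alone, the filter fixed this direction and the test adds no support. Of the 48 other pathway genes (42 tested), 16 were called higher in METTL3-KO than in the other knockouts and 0 lower, while 29.5% of all 12037 genes tested were called higher. Among the 16 were JAK1 (1.87, adjusted p = 0.0109), STAT2 (4.04, adjusted p = 0.016), STAT4 (3.45, adjusted p = 8.40e-05), SOS1 (2.07, adjusted p = 0.0167) and SOCS5 (2.44, adjusted p = 0.0249), and IL6ST (3.47, adjusted p = 4.78e-04), which like CISH had peaks in METTL3-KO alone. Without METTL3-KO 1 the count was 9, and JAK1 (adjusted p = 0.0802), STAT2 (0.113), SOS1 (0.0538) and SOCS5 (0.173) missed the threshold. With centring or division by the step it was 9 as well. The median over all genes tested in that comparison was 1.71, and the METTL3-KO lists held more peaks than those of the other knockouts.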

How the results depend on the processing

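EPOR, STAT5A, SOCS1 and SOCS3 stayed lower and called in the contrasts of KO with NTC under every alternative that gave a value, except SOCS3 in the 3 single knockouts when a peak had to cover the start. EPOR, SOCS1 and SOCS3 have no KO peak and STAT5A a single weak one, so no pseudocount, scaling or left-out library could turn them. Their stability therefore adds no support. The filter at 5 libraries tested none of them, and SOCS1 and SOCS3 had no peak above the NTC median. Over the alternatives the change in all KO ran from -11.46 to -4.87 for EPOR, -11.13 to -5.51 for STAT5A, -8.82 to -2.47 for SOCS1 and -8.77 to -2.42 for SOCS3. It ran from -8.14 to -0.92 for STAT5B, -7.63 to -3.10 for STAT3, -6.26 to -2.20 for SOCS2, -1.44 to 2.94 for CISH and -4.13 to 2.69 for PIM1. The canonical start as the one start was chosen after seeing the data.

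The direction turned for CISH in all KO within 5 kb (-1.44). For PIM1 in all KO it turned with the pseudocount times 10 (-0.53), within 5 kb (-1.65), with peaks covering the start (-0.72), with peaks above the NTC median (-1.38), with starts of protein-coding transcripts or the canonical start (-4.13 each) and without NTC 2 (-2.68; leaving out 1 library ran to 2.05). For PIM1 in METTL3-KO it turned within 5 kb (-0.47) and without NTC 2 (-1.49; up to 3.23). In METTL14-KO it turned with the larger pseudocount (-0.53), within 5 kb (-1.63), with either start set (-6.25 each) and without NTC 2 (-2.65; up to 2.07). In WTAP-KO it turned with the pseudocount times 0.1 (0.32), centring (2.32), division by the step (1.00), the replicate block (0.84) and without NTC 1 (0.77) or NTC 3 (0.84; down to -3.88). SOCS2 in METTL3-KO turned with the larger pseudocount (-0.74), peaks above the NTC median (-2.29), the canonical start (-4.40) and without NTC 1 (-2.59) or METTL3-KO 1 (-0.59; up to 1.47). STAT5B turned with centring in METTL3-KO (0.32) and METTL14-KO (0.17). Of these results, CISH alone was called in the main setting. JAK1 turned with peaks covering the start (-6.25 in all KO, -4.67 in METTL3-KO) and the canonical start (-4.60 and -1.05), GRB2 with centring (1.48), division by the step (0.04), protein-coding transcripts (0.62) and the canonical start (7.03), TFRC with peaks above the NTC median (-0.41), and MYC with the larger pseudocount (-0.22), within 5 kb (-0.98), with peaks covering the start or above the NTC median (-0.52 each) and without NTC 2 or METTL3-KO 1 (leaving out 1 library, -2.39 to 1.66). The causes were not tested.

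Of 9 members, 5 were called in all KO. With genes marked in at least 5 libraries 1 was called, beside 4351 of 5067 genes, and only STAT5B and PIM1 could be tested. With peaks above the NTC median 3 were called, beside 7811 of 8692 genes, and CISH, SOCS1 and SOCS3 could not be tested. In METTL3-KO these counts were 0 and 2, in METTL14-KO 0 and 2, in WTAP-KO 1 and 2, and for METTL3-KO against the other knockouts 0 and 0. With peaks covering the start they were 3 in METTL3-KO, 3 in WTAP-KO and 0 between knockouts, where the groups compared alone gave 3. CISH and SOCS1 could not be tested with peaks covering the start. Of the other pathway genes the stricter filter could test 21, and it called 15 in all KO, 11 in METTL3-KO, 15 in METTL14-KO and 15 in WTAP-KO. Peaks above the NTC median gave 19 in each knockout and 4 between knockouts, and peaks covering the start 16, 17, 16 and, between knockouts, 6. Either of these settings tested 31 pathway genes. Centring and division by the step gave 9 each between knockouts, where leaving out a library gave 9 to 18. Leaving out a library gave 4 to 7 members in all KO, 4 to 7 in METTL3-KO, 4 to 6 in METTL14-KO, 5 to 7 in WTAP-KO and 0 to 2 between knockouts, where CISH could not be tested without a METTL3-KO library. The stricter filter called 4351 genes in all KO, 3226 in METTL3-KO, 4186 in METTL14-KO and 4166 in WTAP-KO, having fewer to test. Peaks above the NTC median gave 6127 in METTL14-KO, 6099 in WTAP-KO and 888 between knockouts. The latter count was 2147 with peaks covering the start, 2280 with centring and 2082 with division by the step. Leaving out a library gave 9551 to 10133 genes in all KO, 8079 to 9547 in METTL3-KO, 9101 to 9441 in METTL14-KO, 9013 to 9489 in WTAP-KO and 2389 to 4378 between knockouts.

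Replicate numbers did not pair the libraries (correlations of deviations -0.058 to 0.095 over 12 same-number pairs). With the replicate block 5 members and 10002 genes were called in all KO, 5 and 8756 in METTL3-KO, 4 and 9329 in METTL14-KO, 4 and 9414 in WTAP-KO, and 1 and 2746 between knockouts, and STAT5B in WTAP-KO was -5.91 (adjusted p = 0.084). The block also ended the calls of TYK2 in all KO (adjusted p = 0.0745) and of STAT2 (0.0687), SOS1 (0.0599) and SOCS5 (0.0875) between knockouts, and made one for SOCS7 in all KO (-5.03, adjusted p = 0.00732). A centred scale moved the median of all genes in all KO from -5.30 to -3.44, and division by the step to -5.04.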
